A study of Homo sapiens with 3 samples.

Results

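The 30 genes described here were listed as p53 pathway and target genes: regulators of p53, genes that p53 switches on, and some relatives of these. Whether p53 acts on each of them in these cells was not measured. The 30 were taken as a fixed list of gene symbols, out of 19775 genes that at least 1 probe set named alone. Of the 30, 28 had such a probe set, and 27 gave a signal above the floor of 45.5 signal units on at least 1 array. EDA2R, a receptor of the tumor necrosis factor receptor family, had signals of 13.9 in OIS, 4.8 in RS and 6.9 in growing cells, all below the floor. BTG2 and FDXR were not analysed here, nor was the mRNA of p53 itself. Values below are deposited MAS5 signals of the brightest probe set of each gene, and log2 ratios were formed after signals under the floor were raised to it.

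The samples were 3 cultures of IMR-90 ER:Ras cells, human lung fibroblasts carrying a Ras protein fused to an estrogen receptor domain, with 1 array each. OIS cells (oncogene-induced senescence) had been kept for 6 days in 100 nM 4-OHT (4-hydroxytamoxifen), the ligand of the fusion. RS cells (replicative senescence) had been passaged repeatedly for 10 weeks. Growing cells had no treatment. All 3 cultures carry the ER:Ras fusion. Its promoter, and whether the cells are 1 clone, are not stated in the labels used here.

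The transcription factor p53 is kept scarce in unstressed cells by MDM2, a ubiquitin ligase, together with its relative MDM4. Damage signals, short telomeres and active oncogenes release it from MDM2, and it then raises transcription of genes for cell cycle arrest, DNA repair, metabolic adjustment and cell death, as well as of MDM2 itself. In fibroblasts it is known as one of the routes into senescence, acting largely through the inhibitor CDKN1A (p21). Much of its regulation is at the protein level and cannot be read from mRNA.

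The p53 response element is a pair of 10-base decamers, and a match close to the start site is printed for the members that held one, so that the genes with p53-type sequence can be seen beside their signals. RefSeq windows (GRCh38.p14) of 300 bases, reaching from 250 bases before to 50 after an annotated start, were searched for 2 copies of the p53 decamer consensus with 0 or 1 base between them and at most 2 mismatches in the 20 bases. The consensus reads the same on both strands, so one pass covered both. Of the 28 members with a probe set 25 had a window, and 4 of these 25 held such a match (MDM2, FAS, AEN and DDB2), against 461 of 27305 genes with a window (1.69%). The members were listed as p53 pathway and target genes, and the mismatch limit was set after a first search, so this contrast is no test. A single exact decamer was held by 5 of the 25 (PLK2, FAS, AEN, DDB2 and SESN1), against 8.06% of genes. Capitals mark the matched decamers in 30-base stretches, all on the plus strand.
MDM2: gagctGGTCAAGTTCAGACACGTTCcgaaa
FAS: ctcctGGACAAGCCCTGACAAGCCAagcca
AEN: gagccGGGCTTGCCCGGGCATGTGGgagct
DDB2: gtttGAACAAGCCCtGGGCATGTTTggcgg
GDF15: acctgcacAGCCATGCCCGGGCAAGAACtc

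The MDM2 stretch lies at chr12:68808918-68808947, before a downstream start of the gene, and the FAS stretch at chr10:88991304-88991333, also before a downstream start. The AEN stretch is at chr15:88621301-88621330, where the match begins 34 bases before the start. In DDB2, at chr11:47214975-47215004, the match had 0 mismatches with 1 base between the decamers, and it began at base 6 of the transcript. A pair of exact decamers up to 13 bases apart occurred in 10 of all 35116 windows, of which the DDB2 window was one. GDF15 did not reach the limit and is printed because its signal differed most, with its best match, at 3 mismatches, in chr19:18386178-18386207. A match is a description of letters, and no binding was measured here.

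Most p53 pathway genes differed little between the arrays, and a single gene, GDF15, stood far from the others. Of the 27 measured members, 2 were at least 2-fold higher in OIS than in growing cells (GDF15 and PLK3), where 4.92% of 13466 measured genes were, and 1 was at least 2-fold lower (MDM4), where 6.63% were. In RS, 1 member was at least 2-fold higher than in growing cells (PLK3; 3.72% of all measured genes) and 1 lower (PLK2; 5.58%). OIS stood at least 2-fold above RS for 2 members (GDF15 and PLK2; 5.48%) and at least 2-fold below it for 1 (GADD45B; 5.27%). With 27 genes these counts lie near the shares over all genes. At 3-fold, GDF15 and PLK3 remained above growing cells in OIS (2.16% of all measured genes did) and 0 members below (2.53%). RS had 0 members at least 3-fold above (1.09%) and 0 below growing cells (2.35%). OIS was at least 3-fold above RS for GDF15 and PLK2 (2.26%) and below it for 0 members (1.87%). As for the smaller differences, 17 members were above and 10 below 0 in OIS over growing cells, with a median log2 ratio of 0.24, whereas 6349 measured genes were above and 6724 below 0, with a median of 0.00. Without GDF15 the members' median was 0.18. In RS the split against growing cells was 15 to 12 and the median 0.07, and between OIS and RS it was 14 to 13 and 0.05, beside a median of 0.00 over all measured genes in each. The 3 comparisons share arrays and are not independent.

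No condition has a replicate, so differences between conditions could not be tested. The nearest thing to a repeat is a further probe set reading the same gene. Over 6759 genes with at least 2 usable probe sets, the SD of one probe set's log2 ratio was 0.36 when OIS was set against growing cells, 0.33 when RS was, and 0.37 between OIS and RS. This covers probe error and not the spread between cultures. Against growing cells, 15 of 27 members differed by more than this SD in OIS (12 higher, 3 lower; 45.2% of all measured genes did) and 12 in RS (8 higher, 4 lower; 44.8%). Between OIS and RS 15 did (10 higher in OIS, 5 lower; 43.2%).

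**Figure D1:**
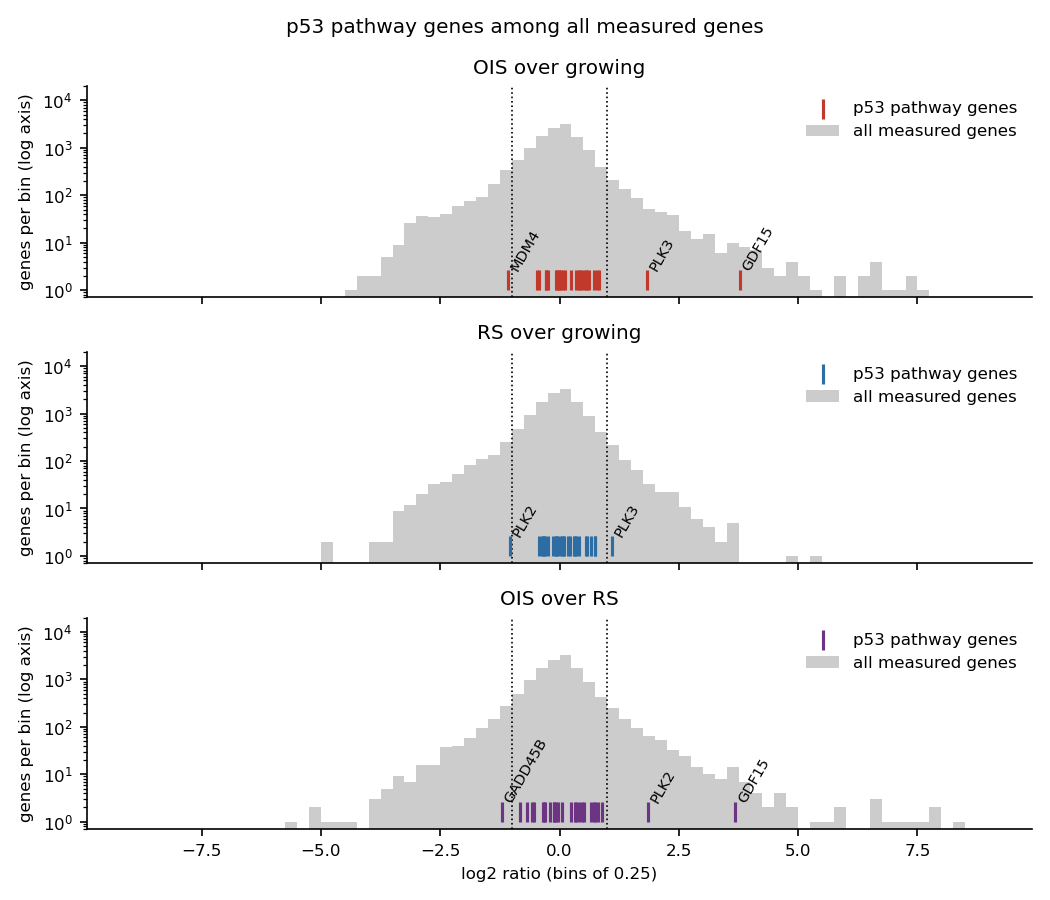
Log2 ratios of the 27 measured p53 pathway genes (coloured ticks) under the distribution of all 13466 measured genes (grey bars, genes per bin of 0.25 on a log axis), with 1 panel for each of the 3 comparisons. Dotted lines mark 2-fold; GDF15 lies far to the right in both comparisons that have OIS on top, and every gene past 2-fold is named.

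The arrays were alike in scale. Between 49.8% and 50.3% of 54613 probe sets were above the floor on each array, and the median signal lay between 44.9 and 46.2. All 8 fibroblast markers checked, among them the collagens COL1A1 and COL1A2, were above the floor on every array. Decorin (DCN) was 2.59-fold lower in OIS than in growing cells and 2.97-fold lower than in RS, lumican (LUM) was 2.22-fold lower in OIS than in RS, and THY1 was 1.49-fold lower in OIS than in growing cells. All 4 division markers (MKI67, TOP2A, CCNB1 and CDK1) were at least 2-fold lower in both OIS and RS than in growing cells. Summed endothelial marker signal was 295.5 in OIS, 142.1 in RS and 117.1 in growing cells, with 2 of 4 markers above the floor: PECAM1 was 2.76-fold and VWF 2.19-fold higher in OIS than in growing cells, while CDH5 and KDR were below the floor on all 3 arrays. Summed signal of 5 epithelial markers was 3164.7 in OIS, 6481.0 in RS and 3324.2 in growing cells, most of it from KRT18. KRT18 and KRT8 were each at least 2-fold higher in RS than in growing cells, EPCAM was 3.20-fold lower in OIS, and CDH1 was below the floor throughout. The summed signal of 4 blood cell markers was 368.0 in OIS, 292.6 in RS and 320.1 in growing cells, and PTPRC was below the floor throughout. The part of any of these in the results was not tested.

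GDF15, a secreted stress factor of the TGF-beta superfamily and an established p53 target, was the only secreted member. Its signal was 22452.5 in OIS, against 1748.5 in RS and 1642.9 in growing cells. OIS was high, and RS and growing cells were close together. OIS was 13.7-fold above growing cells and 12.8-fold above RS, and RS was 1.06-fold above growing cells. GDF15 ranked 39 from the top among 13466 measured genes in OIS over growing cells, and 39 again in OIS over RS. This brightest probe set, 221577_x_at, is of the class that can hybridize to other transcripts. The other probe sets, 229868_s_at and 221576_at, were dim, but each was above the floor on the OIS array alone. The first had signals of 106.8 in OIS, 19.7 in RS and 38.2 in growing cells, at least 2.35-fold higher in OIS than in either. The second had 81.8 in OIS, 1.6 in RS and 20.4 in growing cells, at least 1.80-fold higher. Both counted as usable only through the OIS array, so they had to come out higher there and add no support. The difference rests on the brightest probe set.

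**Figure D2:**
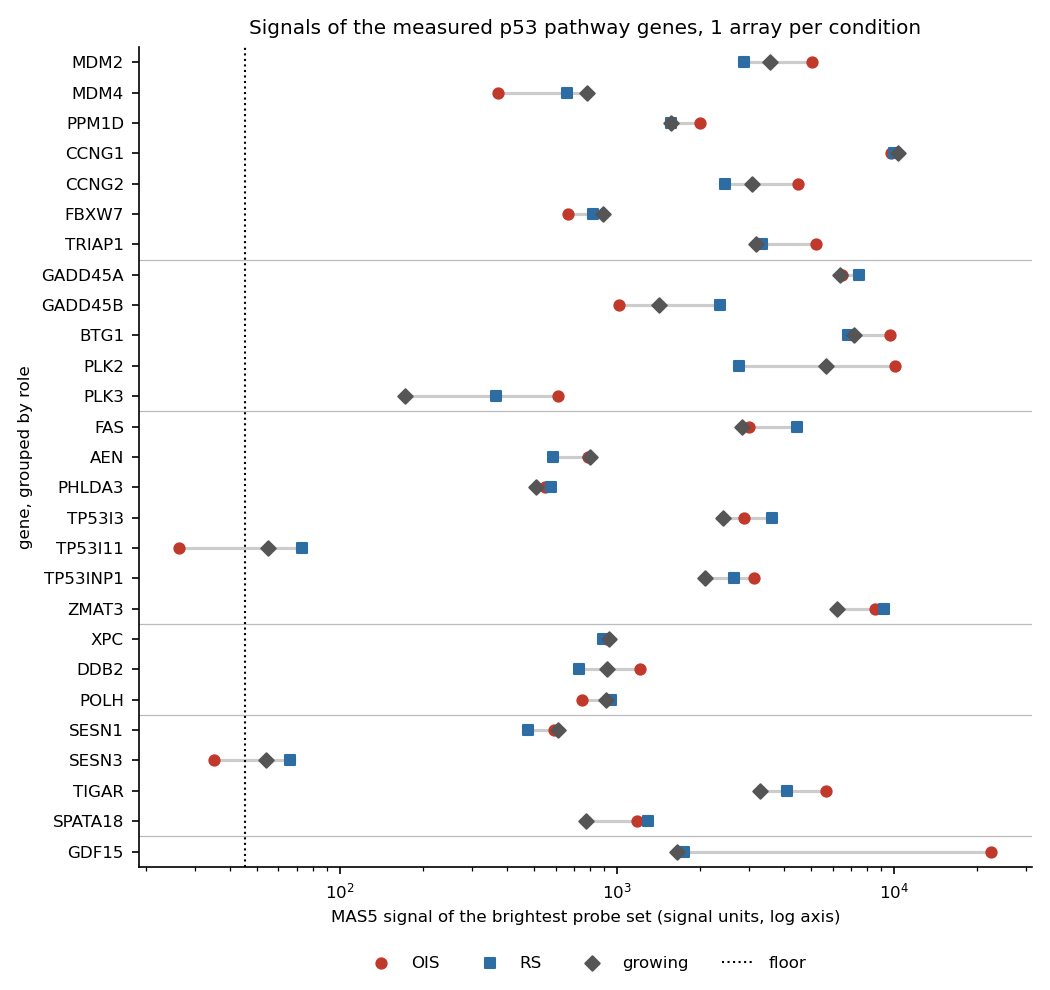
MAS5 signal (log axis) of the brightest probe set of each measured p53 pathway gene on the OIS, RS and growing arrays, 1 array each. Genes are grouped by listed role, from feedback and control of p53 at the top to the secreted GDF15 at the bottom. The dotted line is the floor of 45.5; the widest gap between arrays is that of GDF15, 22452.5 in OIS against 1642.9 in growing cells.

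Among the regulators of p53, the pair MDM2 and MDM4 went opposite ways in OIS. MDM2, the main ubiquitin ligase of p53 and one of its targets, had a signal of 5044.4 in OIS, 2883.0 in RS and 3555.5 in growing cells. It was 1.42-fold higher in OIS and 1.23-fold lower in RS than in growing cells. MDM4, which binds p53 and blocks its activity without degrading it, had a signal of 371.3 in OIS, 657.4 in RS and 782.0 in growing cells. It was 2.11-fold lower in OIS and 1.19-fold lower in RS. As log2 ratios to growing cells, MDM2 was at 0.50 and MDM4 at -1.07 in OIS, and in RS they were close together at -0.30 and -0.25.

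Other probe sets bore on both genes. All 5 MDM4 probe sets above the floor were lower in OIS than in growing cells, with log2 ratios between -1.07 and -0.28, so that the brightest gave the largest difference. Only that one passed 2-fold, and after quantile normalization it gave -0.99 and with the median of all probe sets -0.54, both inside 2-fold. Of the 8 MDM2 probe sets above the floor, 6 were higher in OIS and 2 lower, over a range of log2 ratios between -0.03 and 1.57. In RS over growing cells the MDM2 probe sets ran from -0.91 to 0.58, so no common direction was measured there.

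PPM1D, the phosphatase WIP1 that shuts down damage signaling to p53, had a signal of 1997.5 in OIS, 1566.4 in RS and 1567.4 in growing cells, 1.27-fold above growing cells in OIS and level with them in RS. CCNG2, which encodes the growth-restraining cyclin G2, had 4513.1 in OIS, 2453.6 in RS and 3081.4 in growing cells. Its 4 probe sets above the floor on all 3 arrays were higher in OIS than in growing cells (log2 ratios between 0.23 and 0.55) and lower in RS (between -0.52 and -0.03). The related CCNG1, encoding cyclin G1, a partner of protein phosphatase 2A, was nearly flat at 9718.2 in OIS, 9981.4 in RS and 10302.3 in growing cells. TRIAP1, a small mitochondrial protein that opposes cell death, had 5228.5 in OIS, 3328.3 in RS and 3176.3 in growing cells, so OIS was 1.65-fold higher and RS 1.05-fold higher. FBXW7, the substrate-binding part of a ubiquitin ligase for cyclin E and MYC, had 663.8 in OIS, 816.6 in RS and 893.5 in growing cells, but 1 of its 3 probe sets above the floor was higher in OIS.

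In the group of cell cycle arrest and growth restraint, PLK2, PLK3 and GADD45B of 5 measured genes were past 2-fold in at least 1 comparison. The share of all measured genes past 2-fold in at least 1 comparison was not counted, so this does not set the group apart. PLK2 and PLK3 encode stress-responsive polo-like kinases, unlike PLK1, which drives mitosis. PLK3 had a signal of 610.7 in OIS, 366.3 in RS and 171.9 in growing cells, so both senescent arrays were above the growing one, by 3.55-fold and 2.13-fold. PLK2 had 10040.9 in OIS, 2760.5 in RS and 5697.7 in growing cells. It was 1.76-fold higher in OIS but 2.06-fold lower in RS than in growing cells, and OIS was 3.64-fold above RS. The RS ratio of PLK2 lay just past 2-fold (log2 ratio -1.05), and PLK2 had a single probe set. A second PLK3 probe set above the floor on every array gave smaller log2 ratios, 0.53 in OIS and 0.47 in RS. The remaining one gave -0.35 in both, but it was above the floor in growing cells alone and so had to come out lower. With the median of all probe sets PLK3 was therefore inside 2-fold in both comparisons.

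GADD45B, which encodes a stress-induced growth arrest protein, was low in OIS and high in RS. Its signal was 1017.1 in OIS, 2354.7 in RS and 1415.0 in growing cells, 2.32-fold lower in OIS than in RS. All 4 of its probe sets gave this order, with log2 ratios of OIS over RS between -1.25 and -0.91; the last is the only one not of the cross-hybridizing class, and it lay inside 2-fold. Its relative GADD45A, a classical p53 target, was nearly level at 6509.5 in OIS, 7483.9 in RS and 6404.0 in growing cells. BTG1, an antiproliferative protein, had 9668.5 in OIS, 6804.3 in RS and 7155.0 in growing cells, 1.35-fold higher in OIS, and its second probe set above the floor gave a log2 ratio of 0.42 beside 0.43.

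**Figure D3:**
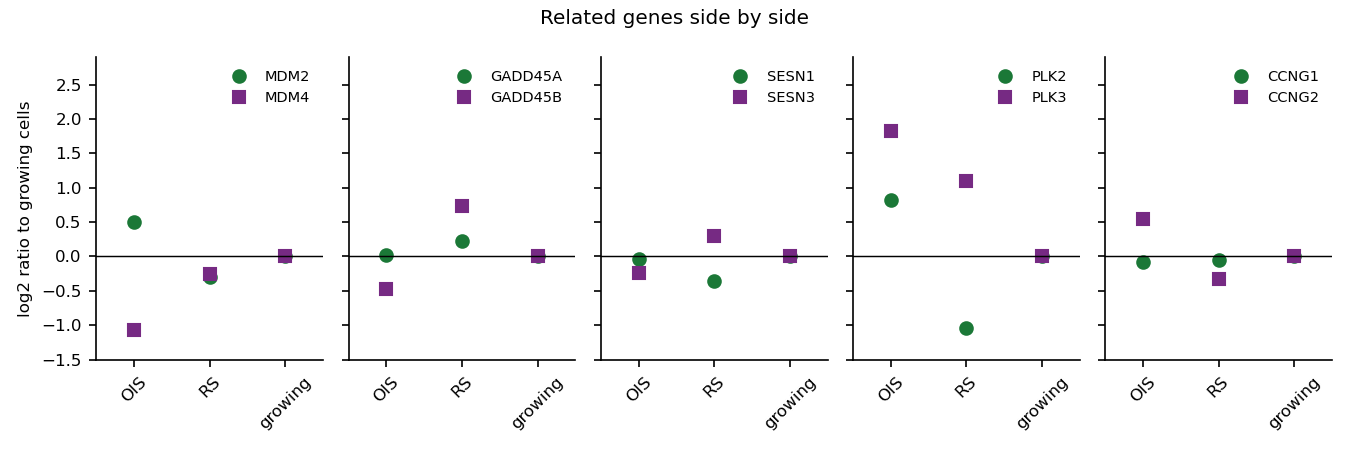
Log2 ratio to growing cells of related gene pairs on the OIS and RS arrays, with growing cells at 0 by construction, 1 array per condition and the brightest probe set of each gene. MDM2 and MDM4 part in OIS, and PLK2 and PLK3 part in RS, where PLK2 is at -1.05 and PLK3 at 1.09.

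None of the 7 measured genes of cell death and survival was past 2-fold in any comparison. Most measured genes were within 2-fold as well: 11910 of 13466 in OIS over growing cells, 12214 in RS over growing cells and 12019 in OIS over RS. In RS over growing cells 6 of the 7 were above 0, with a median log2 ratio of 0.41, where 6337 of 13466 measured genes were above 0. In OIS 5 of 7 were above 0, with a median of 0.11. Of the 6, PHLDA3 lay inside the probe SD and TP53I11 near the floor. FAS, the death receptor whose site is printed above, had a signal of 3001.2 in OIS, 4451.4 in RS and 2836.0 in growing cells. It was 1.57-fold higher in RS and 1.06-fold higher in OIS. All 5 of its probe sets were higher in RS than in growing cells, with log2 ratios between 0.39 and 0.72. In OIS over growing cells the 5 ran from 0.05 to 0.74, the last from 233820_at, the only one not of the cross-hybridizing class. That probe set was dim, with signals of 127.4 in OIS, 126.0 in RS and 76.3 in growing cells. On it OIS was 1.67-fold above growing cells and level with RS (log2 ratio of OIS over RS 0.02, beside -0.57 for the brightest). The other 4, all brighter, had OIS below RS and gave log2 ratios of OIS over growing cells between 0.05 and 0.22. ZMAT3, an RNA-binding zinc finger protein, had 8545.9 in OIS, 9211.4 in RS and 6237.3 in growing cells. Both senescent arrays were above the growing one on all 5 ZMAT3 probe sets, with log2 ratios between 0.43 and 0.84 in OIS and between 0.44 and 0.73 in RS. MDM4, FAS and ZMAT3 each had 5 probe sets above the floor with 1 sign against growing cells on both senescent arrays, down for MDM4 and up for FAS and ZMAT3. These read the same arrays and are no replicates of a culture, and the share of all genes doing this was not counted. Some of the ratios lay inside the probe SD. Among them were all those of FAS in OIS except that of 233820_at, and the brightest of MDM4 in RS.

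TP53I3, a quinone oxidoreductase, had a signal of 2870.1 in OIS, 3620.4 in RS and 2422.8 in growing cells, 1.49-fold higher in RS. TP53INP1, a stress-induced nuclear protein, had 3117.3 in OIS, 2652.1 in RS and 2079.0 in growing cells, with log2 ratios to growing cells of 0.58 in OIS and 0.35 in RS. These genes, like ZMAT3, had growing cells as the lowest array. PHLDA3, an inhibitor of AKT signaling, had 550.4 in OIS, 577.3 in RS and 508.6 in growing cells, 1.08-fold and 1.14-fold higher. Its other probe set, 235534_at, gave 1.41-fold higher in OIS. AEN, a nuclease of apoptosis with a printed site, had 786.4 in OIS, 588.9 in RS and 797.2 in growing cells, level in OIS and 1.35-fold lower in RS. TP53I11, a p53-inducible gene of less settled role, was close to the floor, with 26.3 in OIS, 73.1 in RS and 55.0 in growing cells. Its OIS signal is below the floor, so it was at least 1.21-fold lower there than in growing cells and at least 1.61-fold lower than in RS. Under a lower floor, the 25th percentile, OIS over growing cells gave a log2 ratio of 0.18 in place of -0.27, so the direction against growing cells is not settled.

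The repair genes differed by less than 2-fold throughout, as most measured genes did. DDB2, which recognizes ultraviolet damage and holds the exact site printed above, had a signal of 1209.0 in OIS, 731.8 in RS and 924.1 in growing cells. It was 1.31-fold higher in OIS and 1.26-fold lower in RS, and OIS was 1.65-fold above RS. XPC, the damage sensor of nucleotide excision repair, was flat at 921.6 in OIS, 889.5 in RS and 932.9 in growing cells. POLH, the polymerase that copies past ultraviolet damage, had 748.5 in OIS, 947.6 in RS and 913.4 in growing cells. All 6 of its probe sets were lower in OIS than in growing cells, with log2 ratios between -0.71 and -0.09, and 5 of 6 were lower in RS.

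Of the metabolic and mitochondrial members, TIGAR and SPATA18 were higher in both senescent cultures. TIGAR, a phosphatase that lowers glycolytic flux, had a signal of 5697.5 in OIS, 4107.6 in RS and 3290.0 in growing cells, 1.73-fold and 1.25-fold higher. SPATA18, which takes part in removing damaged mitochondria, had 1185.6 in OIS, 1293.7 in RS and 776.0 in growing cells, 1.53-fold and 1.67-fold higher. For both genes the growing array was the low one, by more than the probe SD in all but the RS ratio of TIGAR (log2 ratio 0.32). The sestrins, which restrain the growth kinase mTORC1, did not share this pattern. SESN1 had 593.9 in OIS, 477.3 in RS and 612.1 in growing cells, 1.28-fold lower in RS. SESN3 was near the floor at 35.2 in OIS, 66.3 in RS and 53.9 in growing cells, at least 1.18-fold lower in OIS than in growing cells.

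**Figure D4:**
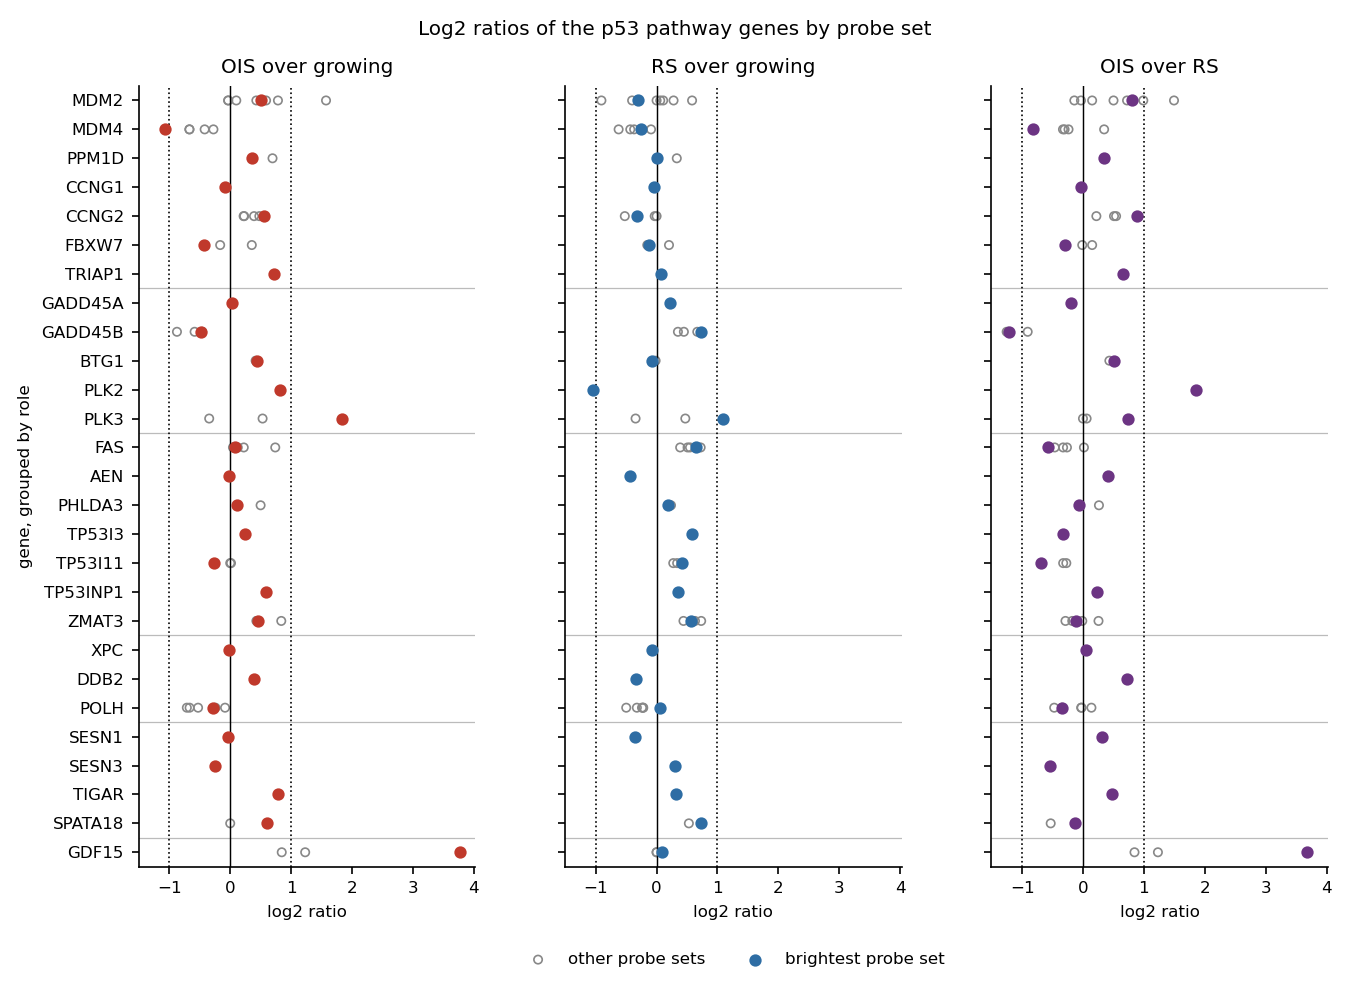
Log2 ratios of every measured p53 pathway gene, with 1 panel for each comparison, the brightest probe set filled and other probe sets above the floor open. Dotted lines mark 2-fold; the open point of BTG1 lies near the filled one in every panel, 1 open point of FAS at 0.74 lies away from its filled point at 0.08 in OIS over growing, and those of GDF15 and PLK3 lie below theirs in that panel.

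The order of the 3 arrays differed from member to member. OIS was the highest array for 11 of 27 members, RS for 10 and growing cells for 6. The same counts were not made over all measured genes, so these only describe the members and do not set them apart. Growing cells were the lowest array for 11 members, namely the 5 led by OIS (TRIAP1, PLK3, TP53INP1, TIGAR and GDF15) and the 6 led by RS (GADD45A, FAS, PHLDA3, TP53I3, ZMAT3 and SPATA18). Another 6 had OIS highest and RS lowest: MDM2, PPM1D, CCNG2, BTG1, PLK2 and DDB2. For GADD45B, TP53I11, POLH and SESN3 RS was highest and OIS lowest on the brightest probe set. In POLH, however, 5 of 6 probe sets had growing cells highest. Several of these orders rest on gaps far inside the probe SD, as for CCNG1 and XPC. Across probe sets, 36 of the 43 other probe sets of 15 members had the sign of the brightest in OIS over growing cells, 34 in OIS over RS and 27 in RS over growing cells. The 43 include probe sets above the floor on only 1 array, among them both dimmer ones of GDF15. Their direction against that array was fixed by the filter, so these counts are no independent check. Over all genes with 2 usable probe sets, the best 2 had the same sign for 72.8%, 71.1% and 70.2% in the same order.

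Further genes of the pathway, from a list of 54 that holds kinases, cofactors and targets outside the 30, were read alongside. Of these 47 were measured, and 5 were at least 2-fold higher (4.92% of all measured genes) and 1 lower (6.63%) in OIS than in growing cells. Their median log2 ratio was 0.20, beside 0.00 over all measured genes. Each of these genes was read from its brightest probe set, and no other probe set was compared. Among those named here and below, that probe set was of the cross-hybridizing class for CDKN1A, GTSE1, BAX, IGFBP3 and TNFAIP8. CDKN1A, the cyclin-dependent kinase inhibitor p21, had a signal of 15759.9 in OIS, 8246.7 in RS and 6063.7 in growing cells, 2.60-fold and 1.36-fold higher. TNFRSF10B, a death receptor for TRAIL, had 16528.1 in OIS, 9056.3 in RS and 7165.3 in growing cells, 2.31-fold higher in OIS. RRM2B, the p53-induced subunit of ribonucleotide reductase, was 2.15-fold higher in OIS, and the membrane protein NINJ1 2.33-fold. ACER2, a ceramidase of the Golgi, had 279.5 in OIS, 139.3 in RS and 79.4 in growing cells and was 3.52-fold higher in OIS. The 1 gene past 2-fold downward was GTSE1, a microtubule protein of G2 cells that restrains p53, 4.05-fold lower in OIS and 3.13-fold lower in RS.

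In RS over growing cells 2 of these 47 genes were at least 2-fold higher (3.72% of all measured genes) and 4 lower (5.58%), with a median log2 ratio of -0.01. TP53INP2, an autophagy factor, had a signal of 481.2 in OIS, 1925.7 in RS and 677.4 in growing cells, 2.84-fold higher in RS but 1.41-fold lower in OIS. IGFBP3, which binds insulin-like growth factors, had 10075.4 in OIS, 22949.6 in RS and 9989.8 in growing cells, 2.30-fold higher in RS. The 4 lower genes were GTSE1, the replication clamp PCNA at 2.39-fold, the checkpoint kinase CHEK1 at 2.16-fold and TNFAIP8 at 2.49-fold lower. PCNA, CHEK1 and GTSE1 are also known as genes of dividing cells, and the division markers were lower on the same array. Any link between them was not tested, and 1 array per condition cannot tell division and senescence apart. In OIS over RS 31 of the 47 were above and 16 below 0, with a median of 0.30. Over all measured genes 6593 were above and 6473 below 0, with a median of 0.00. At least 2-fold higher were 5 of the 47 (5.48% of all measured genes): KITLG at 3.08-fold, NINJ1 at 2.64-fold, PIDD1 at 2.25-fold, BAX at 2.09-fold and ACER2 at 2.01-fold. KITLG is a growth factor, the ligand of KIT, PIDD1 a scaffold for caspase-2 and BAX a pore-forming death protein of the BCL2 family. At least 2-fold lower were 2 of the 47 (5.27% of all measured genes), TP53INP2 at 4.00-fold and IGFBP3 at 2.28-fold.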

How the data were processed

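Per the submitters' processing notes, the authors made the deposited linear signal intensity of each probe set with MAS5, version and settings not given in the sources used here. Per the labels, biotinylated cRNA came from 250 ng of total RNA. The 2% trimmed mean was near 497 on each array, so any shift common to all genes would not be seen. Genes were named from the platform annotation, using the 41091 probe sets that name 1 gene. The floor was the pooled median of the 3 arrays (45.5). Each gene was read from its brightest single-gene probe set by mean log2 signal, and counted as measured if any array exceeded the floor. Log2 ratios and counts at 2-fold were computed with 1 array per condition, so no p-value or error between cultures exists, and the number of arrays limits precision. A fold with "at least" has the dimmer array below the floor. The members, the lists and the 9 alternatives were chosen with earlier results of these data known, and the mismatch limit of the site search after a first search. All members are named; of the other pathway genes, CDKN1A and those past 2-fold. Of the 54 other pathway genes, 5 were not analysed here and 2 were below the floor. The steps were tested on simulated data. Python 3.11.15, numpy 2.4.6, pandas 2.3.3 and matplotlib 3.10.9 were used.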

Additional observations from a re-analysis of the deposited data

How the results depend on the processing

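No paired analysis was possible because each condition had 1 array. Of 627 values of single members under the alternatives, 605 moved by less than the probe SD, 22 moved by more and none past 2-fold turned its direction. Many of the 605 could not move, so their number is no measure of stability. Centring subtracted a median of 0.00, and leaving out the filter did not touch measured members. The other floors left bright members unchanged. Of the 22, 11 came with the median of all probe sets and 6 without cross-hybridizing probe sets. The number of members at least 2-fold higher in OIS than in growing cells was 2; it was 1 with the median of all probe sets (GDF15) and 1 without cross-hybridizing probe sets (PLK3, with GDF15 at a log2 ratio of 0.85). The number lower was 1 (MDM4), and 0 after quantile normalization, with the median of all probe sets and at 3-fold. In RS over growing cells the 1 higher member (PLK3) became 0 with the median of all probe sets and at 3-fold, and the 1 lower member (PLK2) became 0 at 3-fold. In OIS over RS the number higher stayed at 2 without cross-hybridizing probe sets but held other genes: GDF15 moved inside 2-fold (0.85 in place of 3.68) and MDM2 past it (2.82-fold in place of 1.75-fold), beside PLK2. The 1 lower member (GADD45B) became 0 without cross-hybridizing probe sets and at 3-fold, and 2 with a pseudocount of 16 in place of the floor, when TP53I11 was added at -1.07. The median log2 ratio of OIS over growing cells, 0.24, was 0.35 with the floor at the 60th percentile and 0.42 without cross-hybridizing probe sets, where 25 and 22 members were measured. That of RS over growing cells, 0.07, was 0.00 with the median of all probe sets. That of OIS over RS, 0.05, was 0.14 with the floor at the 25th percentile and 0.23 at the 60th. Some alternatives changed which genes or probe sets entered. The median of all probe sets takes in those below the floor on every array, whose log2 ratio is 0.00 by construction. TP53INP1, with 1 of 3 probe sets above the floor, went from 0.58 to 0.00 in this way in OIS over growing cells. The other moves were not traced one by one. Signals near the floor limit TP53I11, SESN3 and the dimmer probe sets of GDF15.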

Other observations

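Probe sets of 1 gene did not always give the same value. In MDM2, probe set 238733_at had signals of 439.0 in OIS, 220.9 in RS and 147.5 in growing cells, 2.98-fold higher in OIS, whereas 205386_s_at had 94.5 in OIS, 96.7 in RS and 96.7 in growing cells. Another MDM2 probe set, 217542_at, had 457.2 in OIS, 162.2 in RS and 304.0 in growing cells and was 1.87-fold lower in RS. In FBXW7, 222729_at had 309.4 in OIS, 278.7 in RS and 242.0 in growing cells, the reverse of the order of the brightest probe set. In PLK3, 229825_at had 25.7 in OIS, 41.8 in RS and 57.8 in growing cells, so growing cells were above the floor and both senescent arrays below it. It counted as usable only through the growing array, so it had to come out lower in OIS and RS. It therefore says nothing for or against the brightest. Which transcript each of these reads was not tested.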
